A study of Rattus norvegicus with 6 samples.

Results

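A group of 10 genes whose products make or remove superoxide and peroxide was followed in the rat adrenal gland: the superoxide dismutases Sod1, Sod2 and Sod3, catalase (Cat), the glutathione peroxidases Gpx1, Gpx3 and Gpx4, the peroxiredoxin Prdx1, the thioredoxin reductase Txnrd1 and xanthine dehydrogenase (Xdh). The members were every probe set annotated to 1 of these 10 genes, out of 4736 genes named singly on the array. There were 20 such probe sets, 19 that named 1 of the genes alone and 1 that named Gpx4 among 10 symbols. The study set 3 arrays of adrenal gland from the spontaneously hypertensive rat (SHR), an inbred strain that develops high blood pressure, beside 3 from the Wistar-Kyoto rat (WKY), the strain commonly used as its normotensive control. Total RNA was read on single-colour Affymetrix rat GeneChips, which give each probe set a single linear intensity on every array. The labels give no age, sex or treatment for either strain, and do not say whether a sample was 1 animal or a pool, so the p-values speak to the spread among these 6 arrays, and that spread may be technical.

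Superoxide is formed where electrons leak to oxygen, and the dismutases turn it into hydrogen peroxide, which catalase, the glutathione peroxidases and the peroxiredoxins then reduce. Thioredoxin reductase draws on NADPH to keep thioredoxin, the partner of the peroxiredoxins, in its reduced form. Xanthine dehydrogenase carries out the last steps of purine breakdown to uric acid, and its oxidase form passes electrons to oxygen, so it can be a source of superoxide and hydrogen peroxide. In the adrenal cortex the mitochondrial cytochromes P450 of steroid synthesis are a further source of leaked electrons.

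Intensities were compared as log2(intensity + 181.5), where the added constant is the 20th percentile of all deposited values above 0. Every log2 change below is SHR minus WKY on that scale, on which dim features show too small a change. The test was limma on the 5244 probe sets with a mean above the 40th percentile, and a probe set was called at a Benjamini-Hochberg adjusted p under 0.05. Of the 19 probe sets naming 1 member, 17 passed the filter, with at least 1 for each of the 10 genes. The untested ones were rc_AA926149_at of Cat, at 213.6 to 817.3 in SHR and 398.4 to 554.3 in WKY, and M21210_i_at of Gpx1, at 128.1 to 147.1 in SHR and 71.4 to 156.5 in WKY. The shared probe set of Gpx4, rc_AI176460_s_at, read 152.5 to 254.1 in SHR and 50.2 to 506.4 in WKY and was not tested either.

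Markers of cortex and medulla marked the tissue in both strains, with the cholesterol importer Star (AB006007_s_at) at 59059 to 93172 in SHR and 73500 to 105013 in WKY and the medullary enzyme Th at 9723 to 14782 in SHR and 10446 to 13405 in WKY. Over the 7 probe sets of medulla genes the summed intensity was 40259 to 51188.5 in SHR and 54037 to 62055 in WKY, without overlap. Of these, 6 had a negative change and 4 had an unadjusted p under 0.05, against 13.9% of all tested probe sets. The 1 called lower was Dbh, the enzyme that makes noradrenaline, at -1.29 ± 0.15 (log2, SE, limma adjusted p = 0.00548). WKY replicate 1 had the highest sums of kidney, fat cell and matrix markers, and was the highest array in 5 of 13 kidney, 8 of 13 fat cell and 15 of 25 matrix probe sets. Kap, a protein of the kidney tubule, read 24.2, 42.6 and 58.7 in SHR and 2050.3, 18.9 and 38.9 in WKY, with WKY replicate 1 first. Over the 13 probe sets of the 7 kidney genes, the summed intensity was 7022 to 10185 in SHR, 16467 in WKY replicate 1 and 8858 and 8992 in the other WKY arrays. SHR replicate 2 had a hexokinase control ratio of 3' to 5' signal of 4.21, against 1.96 to 2.54 in the other 5 arrays. Its GAPDH ratio of 0.95 and its actin ratio of 1.35 lay within the range of the other 5 arrays. The labels name no hybridization run, so runs were inferred from the clock time of hybridization. A gap of over 60 minutes was taken to start a new run, and the day was not used. By this rule SHR replicate 1 fell in a first run with the 3 WKY arrays and SHR replicates 2 and 3 in a second run. A strain comparison within a run therefore exists only for SHR replicate 1.

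**Figure D1:**
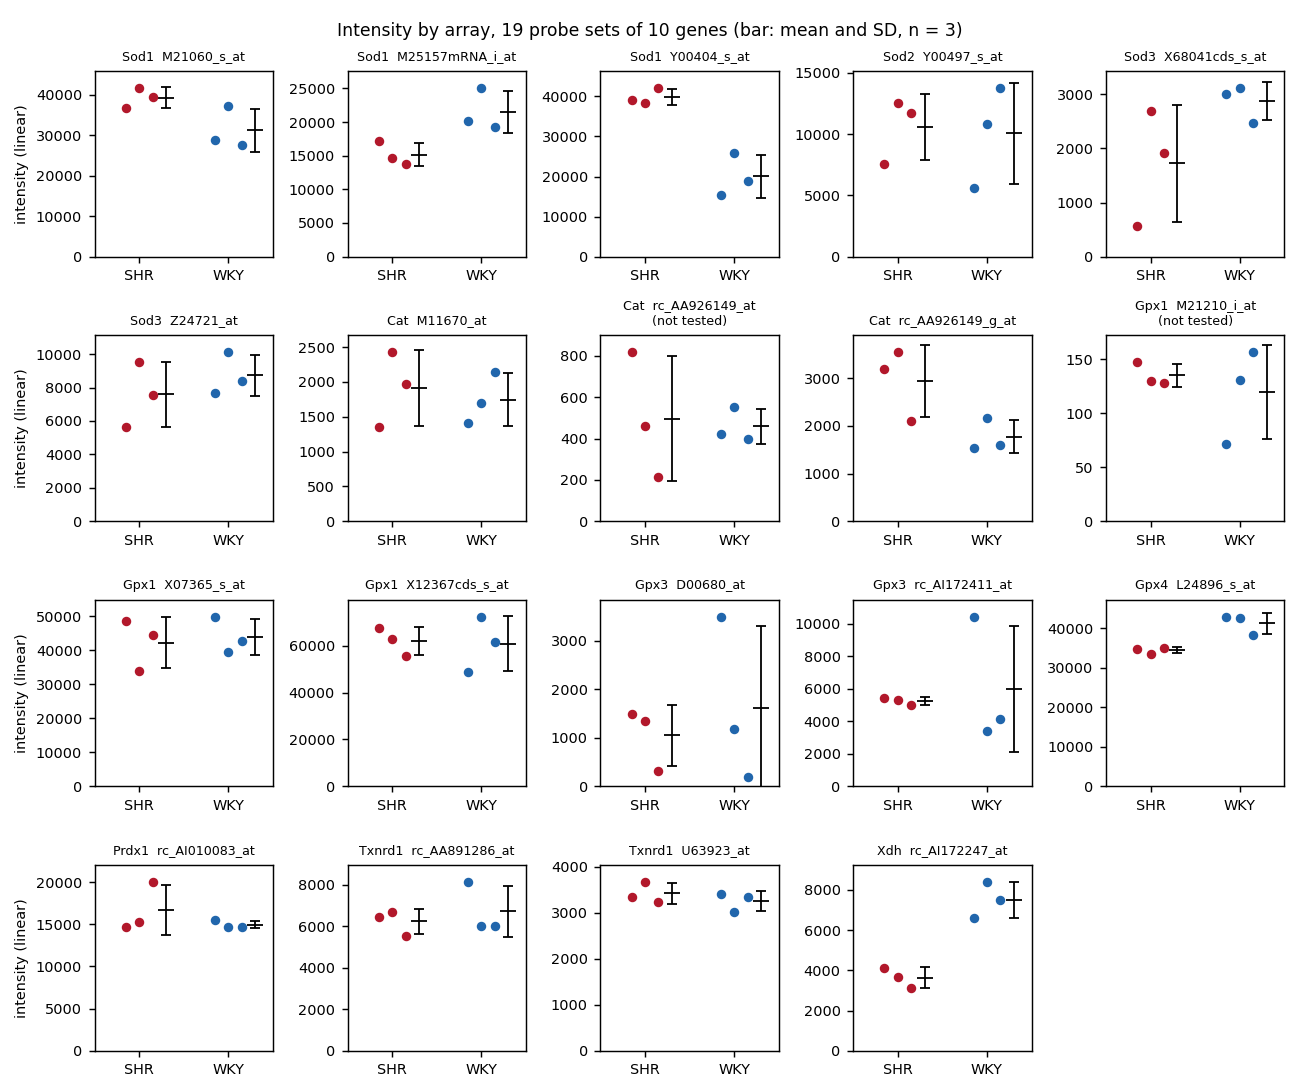
Linear intensity of each of the 19 singly named probe sets on the 3 SHR arrays (red, left) and the 3 WKY arrays (blue, right), with the mean and SD of each strain (n = 3) beside the points; the axes start at 0, where the lower SD bar of Gpx3 D00680_at in WKY is cut. Xdh and the Sod1 probe sets Y00404_s_at and M25157mRNA_i_at, with Gpx4, are the 4 whose strains do not overlap among those tested.

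Xdh was lower and 1 of 3 Sod1 probe sets was higher in SHR, each by about 2-fold, and no probe set of the other 8 genes was called. Of the 17 tested probe sets, 1 rose, 1 fell and 15 did not pass, against 1.95% of all tested probe sets called, 1.07% higher and 0.877% lower. An unadjusted p under 0.05 was reached by 6 of the 17, against 13.9% of all tested probe sets. The strains did not overlap in 4 of the 17, once with SHR above and 3 times with SHR below, against 20.7% of all tested probe sets, 10.2% with SHR above and 10.5% with SHR below. The median log2 change of the 17 was -0.008, against -0.007 over all tested probe sets, and the median size of the change was 0.17, against 0.22 over all. The 17 changes ran from -1.01 for Xdh to 1.02 for Sod1, and those that did not pass ran from -0.88 to 0.66.

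**Figure D2:**
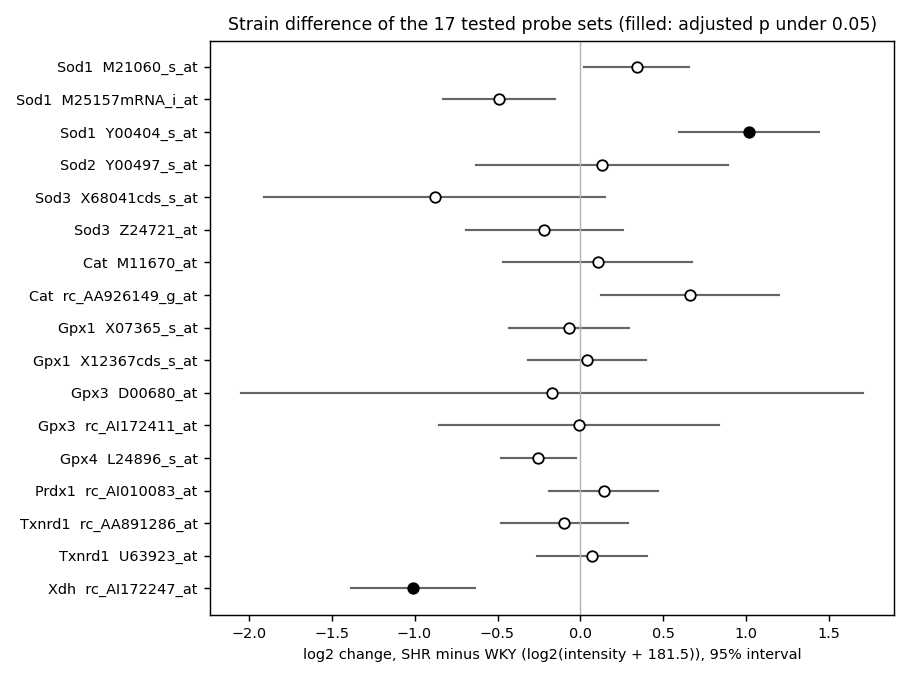
Log2 change of the 17 tested probe sets, SHR minus WKY, with its 95% interval from limma; filled points have an adjusted p under 0.05. Y00404_s_at of Sod1 lies at 1.02 and rc_AI172247_at of Xdh at -1.01, while the 2 other Sod1 probe sets lie on opposite sides of 0.

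The promoters of Sod1 and Xdh are printed because these were the genes with a called probe set. Each window runs from 250 bases before to 50 bases after the RefSeq start site, in the GRCr8 build of the Brown Norway rat, which is neither of the strains studied, and the capitals mark every match to the GC box (GGGCGG), the CCAAT box (CCAAT) and the TATA box (TATAAA) on either strand.
Sod1, chr11:42942573-42942872, plus strand: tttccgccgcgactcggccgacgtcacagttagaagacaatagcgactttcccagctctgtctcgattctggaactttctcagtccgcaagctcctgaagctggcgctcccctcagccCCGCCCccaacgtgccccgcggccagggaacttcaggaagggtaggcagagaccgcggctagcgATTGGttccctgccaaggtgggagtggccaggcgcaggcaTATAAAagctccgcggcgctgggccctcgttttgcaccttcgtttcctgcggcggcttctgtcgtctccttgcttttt
Xdh, chr6:27282069-27282368, plus strand: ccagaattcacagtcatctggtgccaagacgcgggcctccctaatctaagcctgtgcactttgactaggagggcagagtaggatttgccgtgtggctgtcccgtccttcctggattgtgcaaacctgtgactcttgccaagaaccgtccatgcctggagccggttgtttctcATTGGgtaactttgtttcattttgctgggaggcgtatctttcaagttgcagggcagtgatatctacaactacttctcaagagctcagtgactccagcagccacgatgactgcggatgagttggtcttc
The Sod1 window held a TATA box beginning at -28 from the start site, a CCAAT box at -68 and a GC box at -132. The Xdh window held a CCAAT box at -78 and no match to the others. Of all 33469 promoters in the table, 14.2% held the TATA box, 37.5% the CCAAT box and 33.1% the GC box. The core of the antioxidant response element, to which the factor NRF2 binds (TGACNNNGC, both strands), was in neither window, and was found in 3 of the 12 listed promoters of 9 member genes, 1 each of Sod2, Prdx1 and Txnrd1, against 12.1% of all promoters. A match describes letters of the reference and not a bound site.

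Xdh, the 1 gene of the 10 that yields superoxide, read 4123, 3675 and 3117 in SHR replicates 1 to 3, against 6589, 8410 and 7491 in WKY replicates 1 to 3 (rc_AI172247_at). All 3 SHR arrays lay below all 3 WKY arrays, and the highest SHR array was well under the lowest WKY array. The means were 3638 ± 504 in SHR and 7496 ± 911 in WKY (SD, n = 3 each). The log2 change was -1.01 ± 0.16 (SE; 95% interval -1.38 to -0.63; limma adjusted p = 0.0254), which is 2.01-fold lower in SHR on the scale with the constant added. RefSeq lists 1 pseudogene of Xdh, and whether its transcripts reach this probe set was not tested. Within the first hybridization run, which holds the same 3 WKY arrays and SHR replicate 1 alone, the log2 change was -0.83. With the run as a block Xdh was not called (limma adjusted p = 0.301). The call held in 1 of the 6 fits that left out an array, without WKY replicate 1, the array with the highest kidney, fat cell and matrix sums (adjusted p = 0.0469). It was lost without SHR replicate 1 (0.0515), 2 (0.110) or 3 (0.0789) and without WKY replicate 2 (0.0742) or 3 (0.0799), at log2 changes from -1.10 to -0.91.

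Xdh is known from endothelium, fat and epithelia, and several marker lists moved with strain in the same arrays. The 25 probe sets of fibroblast and capsule matrix genes summed to 104545 to 122458.5 in SHR and 160256 to 194672.5 in WKY, with 8 of 23 tested called lower and 0 higher. The 13 probe sets of fat cell genes summed to 50443 to 56864 in SHR and 60048 to 97212 in WKY, with 1 of 10 tested called lower, the protease adipsin (Cfd). The 15 of leukocyte genes summed to 19662 to 23865 in SHR and 29118.5 to 57089 in WKY, and the 3 called lower of 10 tested were all of Cd74. The 15 of endothelial genes summed to 15060 to 18198 in SHR and 14642 to 19386 in WKY, and 0 of 9 tested were called by limma, with 0 at an unadjusted p under 0.05. The 5 of red blood cell genes summed to 38556 to 44287 in SHR and 47726 to 104961 in WKY, with 0 of 4 tested called by limma and 1 at an unadjusted p under 0.05. The sums of the medulla markers, given above, did not overlap between strains either. Nor did those of the 19 probe sets of liver genes, at 9073 to 10534 in SHR and 10741 to 11206 in WKY, with 0 of 6 tested called by limma. The 8 of adrenal cortex genes overlapped, at 287659 to 405111 in SHR and 335446.5 to 450745 in WKY. Within WKY the matrix, fat cell and medulla sums were highest in replicate 1, and the endothelial sum in replicate 3. Replicate 2 was highest in the leukocyte and red blood cell sums and in Xdh. Of the remaining WKY arrays, Xdh was higher in replicate 3, and the leukocyte and red blood cell sums were higher in replicate 1. In none of these lists was a probe set at 0. The part of these cells in the Xdh difference was not tested, and in whole gland fewer cells of a type and less RNA per cell cannot be told apart.

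By mean absolute difference of log2 values over the 6 arrays, each centred on its own mean, the 3 genes nearest to Xdh among 4312 singly named probe sets were Col1a2, a chain of type I collagen, at 0.085, the type V collagen gene Col5a1 at 0.098 and Nfkbia, the inhibitor of NF-kappa-B, at 0.10. Col1a2 and Col5a1 were themselves called, at log2 changes of -0.98 ± 0.17 and -0.81 ± 0.14 (SE; limma adjusted p = 0.0302 for each), and Nfkbia was not, at -0.80 ± 0.20 (0.108). Here, and for Sod1 below, genes were chosen by likeness to a called probe set over the same 6 arrays. A similar strain difference is thus part of the choice and no separate result.

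Sod1, the copper and zinc dismutase of the cytosol, had 3 probe sets that gave 3 different strain differences on the same arrays. Y00404_s_at read 39078, 38352 and 42226 in SHR replicates 1 to 3, against 15417, 25974 and 18795 in WKY replicates 1 to 3. All SHR arrays were above all WKY arrays, and the SHR values were close together. Means of 39885 ± 2059 in SHR and 20062 ± 5392 in WKY (SD, n = 3 each) differed by 1.02 ± 0.18 on the log2 scale (SE; 95% interval 0.60 to 1.44; limma adjusted p = 0.0350), which is 2.02-fold higher in SHR on that scale.

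M25157mRNA_i_at of the same gene read 17154, 14615 and 13774 in SHR, against 20134, 25138 and 19221 in WKY. Here all SHR arrays were below all WKY arrays, with a log2 change of -0.49 ± 0.15 (SE; 95% interval -0.83 to -0.16) that did not pass (limma adjusted p = 0.164). M21060_s_at read 36627, 41797 and 39408 in SHR, against 28925 (replicate 1), 37327 and 27541 in WKY, so the strains overlapped through WKY replicate 2. Its log2 change was 0.34 ± 0.14 (SE; 95% interval 0.02 to 0.65; adjusted p = 0.320).

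The difference between the Sod1 probe sets was then taken within each array. The log2 value of Y00404_s_at minus that of M25157mRNA_i_at was 1.18, 1.38 and 1.60 in SHR replicates 1 to 3, against -0.38, 0.05 and -0.03 in WKY replicates 1 to 3. The arrays of the strains were far apart in this difference, by 1.51 on average. For Y00404_s_at minus M21060_s_at the values were 0.09, -0.12 and 0.10 in SHR, against -0.90, -0.52 and -0.55 in WKY, a strain difference of 0.68. In a two-sided exact permutation test over arrays both pairs reached p = 0.10 (0.10 after adjustment over the 2 pairs), the smallest that 3 against 3 arrays allow. Only pairs of a called and an uncalled probe set were taken, so the strain difference itself picked them. For M25157mRNA_i_at the outcome was fixed in advance, because its strains and those of Y00404_s_at lay fully apart in opposite directions. The test therefore adds nothing to the values of that pair. The sequences of the probes were not used here, and in Affymetrix naming the _s suffix marks a set whose probes are shared by several transcripts and _i a set with fewer unique probes than usual. Which of these values follows the Sod1 transcript in each strain was not tested.

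**Figure D3:**
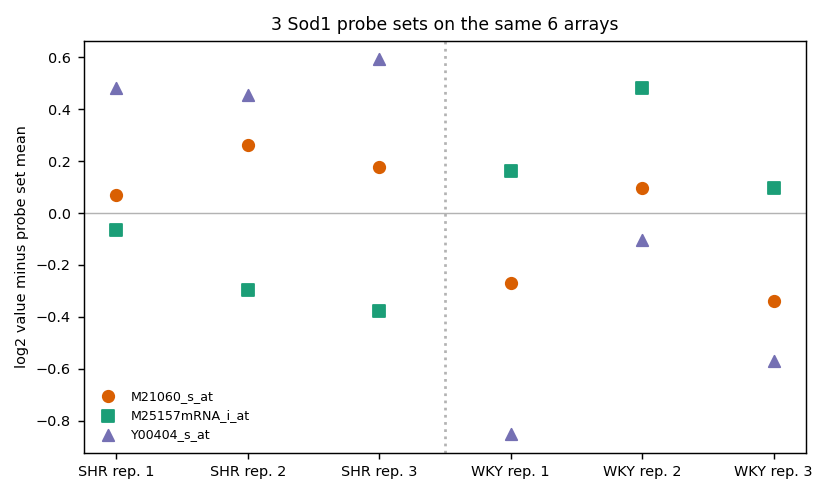
Log2 value of the 3 Sod1 probe sets on each array, minus that probe set's mean over the 6 arrays; SHR arrays are left of the dotted line and WKY arrays right. Y00404_s_at (triangles) is above 0 in the 3 SHR arrays and below it in the 3 WKY arrays, and M25157mRNA_i_at (squares) is the other way round.

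Within the first hybridization run the log2 change of Y00404_s_at was 0.99, and with the run as a block it was not called (limma adjusted p = 0.318). Of the 6 fits without 1 array it passed in 1, without WKY replicate 2 (adjusted p = 0.0101), and failed without WKY replicate 1 (0.0746) or 3 (0.101) and without SHR replicate 1 (0.111), 2 (0.139) or 3 (0.116), with log2 changes from 0.85 to 1.22. The genes nearest to Y00404_s_at in centred log2 values over the 6 arrays were Prp2 at a mean absolute difference of 0.083, the zinc finger gene Zfp706 at 0.095 and the glutathione transferase gene Gstm1 at 0.12. Of these 3, 0 were called by limma (adjusted p = 0.0671, 0.0579 and 0.0608), at log2 changes of 1.00, 0.91 and 0.78.

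**Figure D4:**
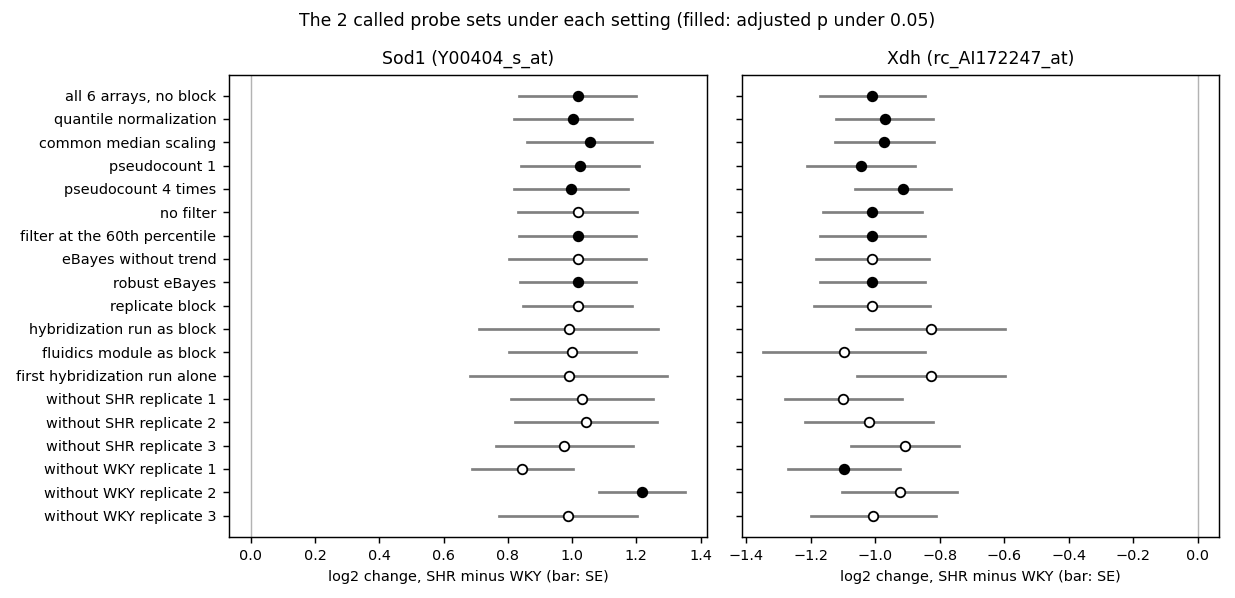
Log2 change, SHR minus WKY, of the called Sod1 and Xdh probe sets under each setting (bars are the SE); filled points have an adjusted p under 0.05. Sod1 stays between 0.85 and 1.22 and Xdh between -1.10 and -0.83, while each call is kept in some settings and lost in others.

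Sod2, the manganese dismutase of the mitochondrial matrix, read 7542, 12554 and 11742 in SHR, against 5638, 10802 and 13804 in WKY (Y00497_s_at). Replicate 1 was the lowest array in both strains, and the strains overlapped over nearly their whole range. The log2 change was 0.13 ± 0.33 (SE; 95% interval -0.63 to 0.89; limma adjusted p = 0.900), and its sign turned within the first run, at -0.32.

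Sod3, the dismutase secreted into the extracellular space, had 2 probe sets, both with a negative change that did not pass. X68041cds_s_at read 567.0, 2696 and 1913 in SHR, against 3013, 3126 and 2469 in WKY. SHR replicate 1 was far below the other 5 arrays, and SHR replicate 2 lay within the WKY range. The log2 change was -0.88 ± 0.45 (SE; limma adjusted p = 0.426), -0.31 without SHR replicate 1 (0.650) and -2.02 within the first run, where SHR replicate 1 is the SHR array (0.0519 with the run as a block). The other, Z24721_at, read 5657, 9515 and 7577 in SHR, against 7676, 10108 and 8384 in WKY, again with SHR replicate 1 lowest. Its log2 change was -0.22 ± 0.21 (adjusted p = 0.693), -0.03 without SHR replicate 1 and -0.60 within the first run.

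Catalase, the peroxisomal enzyme that splits hydrogen peroxide into water and oxygen, was tested by 2 probe sets. With rc_AA926149_g_at it read 3184, 3543 and 2105 in SHR, against 1545 (replicate 1), 2171 and 1608 in WKY. SHR replicate 3 fell just below WKY replicate 2, so the strains overlapped by that pair of arrays. The log2 change was 0.66 ± 0.23 (SE; 95% interval 0.13 to 1.19; limma adjusted p = 0.249). M11670_at read 1348, 2427 and 1971 in SHR, against 1404, 1695 and 2146 in WKY, with full overlap and a log2 change of 0.10 ± 0.25 (adjusted p = 0.892) that was -0.32 within the first run.

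Gpx1, the cytosolic and mitochondrial glutathione peroxidase, showed strain differences near 0 in both tested probe sets. X07365_s_at read 48603, 33848 and 44394 in SHR, against 49815.5, 39441.5 and 42678 in WKY. The second replicate was the lowest in each strain, and the log2 change was -0.07 ± 0.16 (SE; 95% interval -0.43 to 0.30; limma adjusted p = 0.891). X12367cds_s_at read 67469, 62797 and 55762 in SHR, against 48707, 72405 and 61756 in WKY, and its log2 change was 0.04 ± 0.15 (95% interval -0.32 to 0.39; 0.943). Both intervals leave out a 2-fold difference in either direction.

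Gpx3, the glutathione peroxidase secreted into plasma and made largely by the kidney tubule, was highest in the same array in both probe sets. D00680_at read 1486, 1334 and 317.0 in SHR, against 3488, 1174 and 178.9 in WKY. Likewise rc_AI172411_at read 5429, 5326 and 4961 in SHR, against 10406, 3370 and 4113 in WKY. WKY replicate 1 was the highest array in both probe sets, while SHR replicate 3 was low in D00680_at only. The same array was the highest of the 6 in Kap and in 4 of the other 12 kidney probe sets, all of Slc34a1, the sodium phosphate transporter of the proximal tubule. One of these, AB013455_at, read 384.5, 288.9 and 269.7 in SHR, against 1748.2, 312.3 and 275.5 in WKY. Umod, Aqp2, Cdh16, Slc12a1 and Slc12a3 were highest in other arrays.

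With all 6 arrays the log2 changes of Gpx3 were -0.17 ± 0.81 for D00680_at and -0.008 ± 0.37 for rc_AI172411_at (SE; limma adjusted p = 0.954 and 0.996). Without WKY replicate 1 both were positive, at 0.63 (adjusted p = 0.774) and 0.47 (0.304). For rc_AI172411_at the 3 SHR arrays lay above the remaining 2 WKY arrays, and the SE was 0.16 in place of 0.37. Without WKY replicate 3 the log2 changes were -1.05 for D00680_at (limma adjusted p = 0.517) and -0.18 for rc_AI172411_at (0.902). WKY replicate 1 was also the array with the highest fat cell sum, 97212, against 50443 to 56864 in SHR and 60048 and 67236 in the other WKY arrays, and the highest matrix sum. The part of kidney, fat or matrix cells in the Gpx3 values was not tested.

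**Figure D5:**
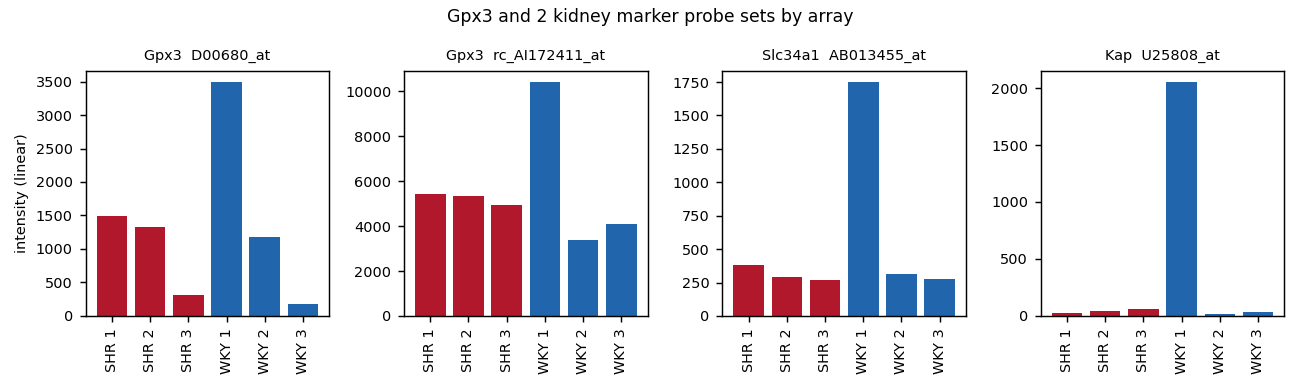
Linear intensity by array of the 2 Gpx3 probe sets and of the kidney markers Slc34a1 (AB013455_at) and Kap (U25808_at), SHR in red and WKY in blue. WKY replicate 1 is the tallest bar in each panel, at 3488, 10406, 1748.2 and 2050.3.

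Gpx4, the peroxidase that reduces lipid hydroperoxides in membranes, read 34788, 33551 and 34976.5 in SHR, against 42809, 42543 and 38131 in WKY (L24896_s_at). All SHR arrays were below all WKY arrays, with a narrow spread in SHR. The means were 34439 ± 774 in SHR and 41161 ± 2627 in WKY (SD, n = 3 each), and the log2 change of -0.25 ± 0.10 (SE; 95% interval -0.48 to -0.03) did not pass (limma adjusted p = 0.295). RefSeq lists 4 pseudogenes of Gpx4, 7 of Prdx1 and 1 of Sod2, which were likewise not tested for.

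Prdx1, a cytosolic peroxiredoxin, read 14715.5, 15219 and 20059 in SHR, against 15498, 14669 and 14739 in WKY (rc_AI010083_at). SHR replicate 3 was above the other 5 arrays, which lay close together. The log2 change was 0.14 ± 0.14 (SE; 95% interval -0.19 to 0.47; limma adjusted p = 0.719).

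Txnrd1, the cytosolic thioredoxin reductase, varied little in either of its probe sets. U63923_at read 3346.5, 3680 and 3244 in SHR, against 3406, 3011 and 3352 in WKY. The strains overlapped, and the log2 change was 0.07 ± 0.14 (SE; 95% interval -0.26 to 0.40; limma adjusted p = 0.874). With rc_AA891286_at the values were 6446, 6693 and 5531 in SHR, against 8139, 5997 and 6023 in WKY, where WKY replicate 1 was the highest array, and the log2 change was -0.10 ± 0.17 (0.848).

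Other genes of the same chemistry were counted in 8 lists, with 61 tested probe sets of 39 genes. Of the 61, limma called 1 higher and 0 lower in SHR (1.64%, against 1.95% of all tested probe sets), and the median log2 change was 0.02. In all, 15 reached an unadjusted p under 0.05, against 13.9% of all tested probe sets. The same 13.9% is the background for the count in each list below. The call was Slc3a2, the heavy chain of the amino acid exchangers that bring in cystine. With X89225cds_s_at it read 14257, 13727 and 14793 in SHR, against 9307, 8565 and 8887 in WKY. The strains were well apart, and SHR was higher by 0.67 ± 0.11 (SE, log2; limma adjusted p = 0.0295). Its other probe set was at 0.81 ± 0.30 (0.285). No fit without 1 array and no fit with a block kept this call, and blocking on the hybridization run left its log2 change at 0.67 (adjusted p = 0.265).

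Among the remaining genes of glutathione synthesis and recycling, 0 of the other 10 tested probe sets passed, and Gclc, the catalytic subunit of the enzyme that limits glutathione synthesis, was at 0.66 ± 0.19 (SE, log2; limma adjusted p = 0.155). The list's 11 probe sets had a median of 0.26. Of the 11 probe sets of peroxiredoxin and thioredoxin partners 0 were called by limma, 5 had an unadjusted p under 0.05 and the median was 0.07. Txnip, which binds and inhibits thioredoxin, was at -0.82 ± 0.31 (adjusted p = 0.294) and -0.66 ± 0.18 (0.127) in its 2 probe sets. The second of these read 2915 to 3441 in SHR and 4216 to 6202 in WKY, without overlap, as in 20.7% of all tested probe sets. The mitochondrial thioredoxin gene Txn2 was at 0.33 ± 0.10 (0.167).

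NRF2 and its targets gave 0 calls by limma among 8 probe sets, with 4 at an unadjusted p under 0.05 and a median of -0.08. Nfe2l2, which encodes NRF2 itself, was at -0.78 ± 0.24 (rc_AI177161_at; SE, log2; limma adjusted p = 0.177) and -1.05 ± 0.35 (rc_AI177161_g_at; 0.224). The strains did not overlap in either probe set, as in 20.7% of all tested probe sets. Both are named from the same sequence, so they are not independent readings. The haem oxygenase gene Hmox1, an NRF2 target, was at 0.71 ± 0.16 (0.0755) and 0.70 ± 0.51 (0.596). Values of opposite sign thus stood within this list.

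Purine breakdown and salvage, the pathway of Xdh, had 0 of 7 probe sets called by limma, 1 at an unadjusted p under 0.05 and a median of -0.02. Gda, which makes xanthine from guanine, was at -0.57 ± 0.18 (SE, log2; limma adjusted p = 0.195) and -0.09 ± 0.13 (0.808) in its tested probe sets, and Aprt, which salvages adenine, at -0.27 ± 0.14 (0.443). Copper and iron handling had 0 of 5 called and 0 at an unadjusted p under 0.05 (median 0.07), with the transferrin receptor gene Tfrc at 0.39 ± 0.21 (0.443) and the iron transporter gene Slc11a2 at 0.09 and -0.49. Selenium supply and other selenoproteins, the group to which the selenium of the glutathione peroxidases belongs, had 0 of 4 called and 0 at an unadjusted p under 0.05 (median 0.04). Selenop, the selenium carrier of plasma, was at -0.36 ± 0.24 (0.554) and Selenow at 0.17 ± 0.19 (0.732).

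Peroxisome biogenesis, the compartment of catalase, had 0 of 14 probe sets called by limma, 2 at an unadjusted p under 0.05 and a median of -0.005. Both of the 2 were of Pex14, a docking protein for peroxisomal import, at 1.32 ± 0.40 (SE, log2; limma adjusted p = 0.167) and 0.66 ± 0.22 (0.233). These probe sets, AB017544_g_at and AB017544_at, are likewise named from the same sequence. Pex6, an ATPase of the import machinery, was at 0.06 and -0.79. Of the NADPH oxidase subunits only Rac1 was tested, at -0.11 ± 0.18 (adjusted p = 0.848), and the others with a probe set, Cyba and Nox4, were too dim for the test.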

How the data were processed

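Adrenal gland RNA of 3 SHR and 3 WKY samples was measured on Affymetrix rat arrays, and groups and replicate numbers were taken from the sample titles. The authors deposited 1 linear intensity per probe set and array. The algorithm behind it is not given in the sources used here. All 6 arrays had the same trimmed mean, 2504, so a scaling step preceded deposit, and no further one was applied. The authors also deposited instrument settings per array (other values), which showed 1 chip lot and 1 fluidics station. The 2 hybridization runs were inferred from the clock times in these settings, split at a gap of over 60 minutes, without the day.

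Probe sets were named from the platform annotation, updated through RefSeq gene identifiers (GRCr8, names and promoters only). Of 8799 probe sets 59 controls were left out, and 8740 remained. limma 3.58.1 (lmFit, eBayes with trend, R 4.3.3, statmod 1.5.0) compared strains over all tested probe sets with no covariate, two-sided. The number of arrays limits the precision. The steps were tested on simulated data.

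The members and lists were chosen with earlier results of these data known. All member probe sets are described. From each list of other genes, called genes and the 2 of smallest p are named. Alternatives covered normalization, pseudocount, filter, eBayes settings, the replicate number, run or module as a block, and each array left out; the first run alone was added after seeing the data. Same-numbered arrays deviated together by correlations of 0.00088, 0.010 and 0.071, so the numbers were not taken as pairs.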

Additional observations from a re-analysis of the deposited data

How the results depend on the processing

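The 2 member calls and the 1 call in the other lists stood under both other normalizations, pseudocounts of 1 and 726, the filter at the 60th percentile and robust eBayes. With no filter 1 member was called, Xdh, and the call in the lists stood. Without the intensity trend, with the replicate block, with the hybridization run or the module as a block, and in the first run alone, limma called 0 members, with 4 or 5 at an unadjusted p under 0.05, and 0 in the lists, with 7 to 15. Over all probe sets the calls were 102, against 60 without the trend, 53 with the replicate block, 20 with the run and 46 with the module as a block, and 1 in the first run alone, which rests on 1 SHR array. With the fluidics module as a block, the strain contrast rests on SHR replicates 2 and 3 against WKY replicates 1 and 2. SHR replicate 1 and WKY replicate 3 each have a module alone and add nothing to it. Without 1 array the counts ran from 0 to 1 for members, from 0 to 0 for the lists and from 38 to 59 over all. The replicate block left log2 changes as they were, at 1.02 for Sod1 (adjusted p = 0.0570) and -1.01 for Xdh (0.0730). SHR replicates 1 and 2 correlated best with another number than their own, so these numbers are not shown to pair arrays. The 2 differences between Sod1 probe sets kept their sign under the other normalizations and pseudocounts and with each array left out. They were not run with a block. Leaving out an array could not turn the sign, because the strains lay fully apart in both differences.

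Members that were not called turned sign where they lay near 0. With the run as a block, and equally in the first run alone, the log2 changes were -0.32 for Sod2, -0.32 for Cat (M11670_at), 0.15 for Gpx1 (X07365_s_at), 0.46 (D00680_at) and 0.043 (rc_AI172411_at) for Gpx3 and -0.024 for Prdx1. With the module as a block Gpx1 (X12367cds_s_at) was at -0.0052. Quantile normalization and median scaling put Gpx3 (rc_AI172411_at) at 0.026 and 0.029, against -0.008. Leaving out 1 array gave ranges that span 0: -0.23 to 0.40 for Sod2, -0.071 to 0.31 for Cat (M11670_at), -0.17 to 0.085 for Gpx1 (X07365_s_at) and -0.11 to 0.17 (X12367cds_s_at), -1.05 to 0.63 for Gpx3 (D00680_at) and -0.32 to 0.47 (rc_AI172411_at), and -0.17 to 0.044 for Txnrd1 (rc_AA891286_at). The cause was not tested. The number of arrays limits the precision, and signal over background was not used here.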
